A study of Homo sapiens with 8 samples.

Results

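The comparison described here is between cultures 1 and 2 and cultures 3 and 4 of a human osteosarcoma line, across 8 of the 8 RNA-seq libraries of the study, 4 libraries in each set. The cells were 143BTK-, a bone tumour line that lacks thymidine kinase. All of them grew without glucose, in DMEM with 10 mM galactose, 5% dialysed serum, uridine and GlutaMAX, and every culture received a lipid-carried RNA mimic, so no library comes from untransfected cells. Both groups received 80 pmol of mimic at 0 h and again at 48 h, the transfection mix was taken off at 24 h and at 96 h, and cells were harvested at 120 h. One group (4 libraries) received the hsa-miR-101-3p mimic and the other (4 libraries) the mirVana negative control mimic. The labels number the libraries of each group 1 to 4 and speak of 4 separate transfections; they give no date or batch for the numbers. Total RNA was sequenced after ribosomal RNA removal.

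Membership of the sets was chosen on measured values: libraries 1 and 2 lie close together within each mimic, and libraries 3 and 4 lie further from them. By correlation, library 3 is nearer to libraries 1 and 2 than to library 4, so cultures 3 and 4 are not a close pair. A gene's difference between the sets, and a difference between the sets in its response to miR-101, therefore rest on the same values that chose the sets and are given below as descriptions, with a standard error and no test. Only the response to the labelled mimics is tested. What distinguishes the sets (the day, the passage, the density of the cells, the reagents or the handling of RNA) was not recorded in the labels, and these cannot be told apart. In bulk RNA, fewer cells of a kind and less RNA per cell cannot be told apart either. Except where a culture block is named, the edgeR p-values below rest on the spread of libraries within a set and mimic. Spread between the sets does not enter them. The permutation p-values, for shares of counts, rest on all 8 libraries. All of them speak for these transfections only.

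Interferon-stimulated genes are transcribed when factors such as STAT2 and IRF9 bind a short promoter element, and cells can turn them on after sensing foreign double-stranded RNA. Complement components, ceruloplasmin and related secreted proteins are inducible by cytokines in many cell types, and collagen IV and the laminins build the basement membrane. The co-activators YAP and TAZ act through TEAD factors on genes such as CTGF, and their activity is known to vary with cell density and spreading. miR-101-3p is a microRNA that lowers mRNAs carrying a match to its seed in the 3′ UTR; EZH2 is its best described target.

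Sequences of the mimic and of a few promoters are shown to let the elements be seen. The promoters were picked because they hold a match; those of RSAD2, AXL and AMOTL2, also described below, hold none in the same window. The mature miR-101-3p of RefSeq (GRCh38.p14, MIR101-2, chr9:4850345-4850365, plus strand) has its seed, bases 2 to 8, in capitals.
hsa-miR-101-3p: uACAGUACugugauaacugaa
The next promoters belong to interferon-stimulated genes that were higher in cultures 1 and 2 of the control group. They run from 250 bases before to 50 bases after the start site in RefSeq (IFIT1, chr10:89392373-89392672, and IFIT3, chr10:89327747-89328046, both plus strand). Capitals mark matches, on either strand, to the interferon-stimulated response element searched as GAAA, any 2 bases and GAAA.
IFIT1: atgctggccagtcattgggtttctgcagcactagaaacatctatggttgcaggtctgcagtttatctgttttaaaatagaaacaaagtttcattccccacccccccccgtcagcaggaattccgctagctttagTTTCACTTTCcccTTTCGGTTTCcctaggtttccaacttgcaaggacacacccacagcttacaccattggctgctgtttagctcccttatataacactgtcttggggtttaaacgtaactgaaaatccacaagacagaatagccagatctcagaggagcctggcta
IFIT3: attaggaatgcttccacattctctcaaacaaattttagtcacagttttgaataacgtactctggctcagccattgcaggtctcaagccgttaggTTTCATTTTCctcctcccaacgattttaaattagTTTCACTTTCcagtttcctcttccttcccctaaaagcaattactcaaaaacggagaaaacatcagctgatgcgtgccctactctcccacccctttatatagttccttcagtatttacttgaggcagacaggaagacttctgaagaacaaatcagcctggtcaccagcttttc
The last pair belongs to YAP and TEAD targets, of which CTGF was lower in cultures 1 and 2 and ANKRD1 was high in culture 4 (CTGF, which RefSeq names CCN2, chr6:131951323-131951622, and ANKRD1, chr10:90921038-90921337, both minus strand). Capitals mark the TEAD motif GGAATG on either strand.
CTGF: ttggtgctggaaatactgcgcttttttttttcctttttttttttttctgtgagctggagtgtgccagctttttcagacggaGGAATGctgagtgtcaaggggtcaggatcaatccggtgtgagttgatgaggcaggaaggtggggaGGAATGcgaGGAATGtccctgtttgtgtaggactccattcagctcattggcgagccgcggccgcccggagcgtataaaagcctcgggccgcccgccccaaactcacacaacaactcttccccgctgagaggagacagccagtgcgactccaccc
ANKRD1: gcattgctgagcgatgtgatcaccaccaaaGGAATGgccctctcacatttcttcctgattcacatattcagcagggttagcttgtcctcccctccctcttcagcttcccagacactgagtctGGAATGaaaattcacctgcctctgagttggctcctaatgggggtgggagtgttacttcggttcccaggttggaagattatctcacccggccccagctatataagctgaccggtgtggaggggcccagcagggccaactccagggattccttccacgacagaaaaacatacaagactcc

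Of the 29 interferon-stimulated genes matched to a RefSeq promoter, 17 (58.6%) held the response element in this window, against 3.65% of 27305 promoters of the same length. The matches began 116 and 103 bases before the start of IFIT1 and 156 and 122 bases before that of IFIT3. Of 18 matched YAP and TEAD targets, 7 (38.9%) held GGAATG, against 14% of all promoters; in CTGF it began 169, 104 and 95 bases before the start, and in ANKRD1 220 and 128 bases before it. These are matches of letters, not measured binding.

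Total counts were 17603054 to 20160267 per library, and 15977 to 15982 of the 15982 genes had a count above 0, so depth differed little. Over log2 CPM (CPM, counts scaled to TMM-adjusted library sizes) the correlation was 0.995 between the 2 miR-101 libraries of cultures 1 and 2 and 0.994 between their control libraries. It was 0.987 between the miR-101 libraries of cultures 3 and 4 and 0.972 between their controls. Of 11502 genes with a mean of at least 4 CPM, 0 and 5 differed 2-fold within cultures 1 and 2 (miR-101 and control), against 171 and 797 within cultures 3 and 4. Libraries 1 and 2 still differed by more than sampling noise, with a mean chi-square per gene of 3.82 (miR-101) and 4.72 (control), and were kept as separate samples; whether they were separate cultures rests on the labels alone. Library 3 lay nearer to libraries 1 and 2 than to library 4 of its own set. Its correlation with libraries 1 and 2 was 0.990 and 0.990 with miR-101, and 0.983 and 0.982 with control. There 62 and 52 genes differed 2-fold with miR-101, and 242 and 236 with control. Cultures 3 and 4 thus stand apart from each other as well as from cultures 1 and 2. Values without one of them are given where a difference moved by more than 1.5 times among the genes for which this was computed. Small structural non-coding RNAs took 18.7% of counts in miR-101 library 4 and 18.4% in control library 3, against 12.7% to 14.4% in the other 6 libraries.

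Below, values per library are listed in the order of cultures 1, 2, 3 and 4. A set difference is the log2 ratio of cultures 1 and 2 over cultures 3 and 4, averaged over the mimics, ± SE from a fit of all 8 libraries. The rule of size asks for at least 2-fold and for no overlap of the sets within either mimic.

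Cultures 1 and 2 had higher mRNA of CP, C3 and GDF15, of most collagens and laminins with values and of interferon-stimulated genes. They had lower mRNA of CTGF and AXL. Of 24 YAP and TEAD targets 19 were lower on average over the mimics, but only 8 without overlap. By the rule of size 174 of 15982 genes (1.09%) were higher in cultures 1 and 2 and 66 (0.413%) were lower. Without regard to size, 1747 genes (10.9%) were higher without overlap and 1616 (10.1%) were lower. Among genes with at least 4 CPM, 75 were higher and 18 lower by the rule. Leaving out both libraries of culture 3, which is the nearer of the pair to cultures 1 and 2, gave 607 genes in place of 240; leaving out culture 4 gave 291. With a culture left out, its set has 1 library per mimic, so no overlap is easier to meet. The larger counts thus do not show larger differences. The threshold has no gap: IFI6 (1.00), CHRM3 (1.01) and LAMB3 (-1.01) lay just inside and ANO1 (-0.9996), PLCXD2 (-0.99) and HIST1H4A (-0.99) just outside.

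More genes passed the rule of size between the sets with the control mimic than with miR-101. Among the control libraries alone 399 genes passed the rule of size as higher in cultures 1 and 2, and 88.7% of them had the same sign in the miR-101 libraries. Their median was 1.31 (log2) in control and 0.59 in miR-101 libraries, where the first value is of the libraries that chose the genes. Among the miR-101 libraries alone 172 genes were higher, 91.9% of them with the same sign in control, and their median was 1.2 in miR-101 and 1.07 in control libraries. In the lower direction 194 genes passed with control (85.1% with the same sign, median -1.19 against -0.56 with miR-101) and 129 with miR-101 (85.3%, median -1.18 against -0.49 with control). Over all genes the set differences in the 2 mimics had a correlation of 0.531, a value across genes, which are not independent replicates, from libraries whose set labels were chosen on these values.

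**Figure D1:**
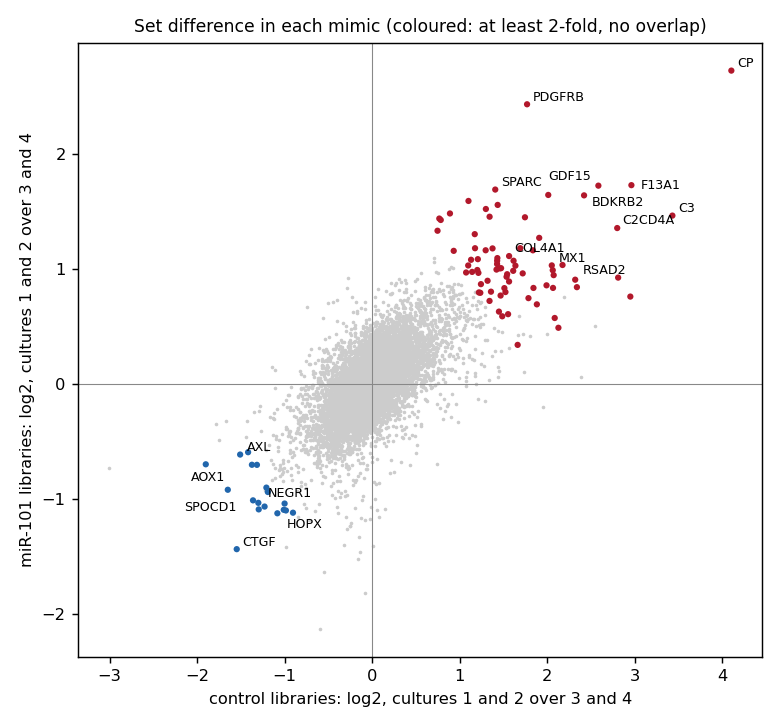
Set difference of each gene with at least 4 CPM, as log2 of cultures 1 and 2 over cultures 3 and 4, in the control libraries (x axis) and in the miR-101 libraries (y axis); red and blue points are the 75 higher and 18 lower genes past the rule of size. CP lies at the upper right with 4.1 and 2.72, and CTGF at the lower left with -1.55 and -1.43.

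The 3 highest set differences among genes of at least 4 CPM were those of CP, C3 and F13A1, which encode secreted proteins; they are given with C1S and SLPI, also secreted and also among the highest 14. CP encodes ceruloplasmin, the copper-carrying ferroxidase (chr3:149162410-149222055, minus strand, GRCh38). It had 11.9, 8.99, 0.931 and 0.335 CPM in the control libraries and 77.1, 75.6, 17.4 and 5.69 CPM in the miR-101 libraries. Both libraries of cultures 1 and 2 were above both of cultures 3 and 4 within each mimic, and the set difference was 3.41 ± 0.38 (log2). Without culture 3 it was 4.34 and without culture 4 it was 2.81. C3, the component on which the complement pathways converge (chr19:6677704-6730562, minus strand), had 3.57, 3.55, 0.372 and 0.287 CPM in the control libraries and 9.93, 9.54, 4.06 and 2.98 CPM in the miR-101 libraries. The sets did not overlap, with a difference of 2.45 ± 0.19. Within each mimic the libraries of cultures 1 and 2 lay close together for C3.

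C1S, a serine protease of the first complement complex, had 5.72, 6.63, 1.12 and 0.526 CPM in the control libraries and 11, 12, 6.7 and 6.88 CPM in the miR-101 libraries. Its set difference of 1.85 ± 0.19 came mainly from the control libraries, where it was 2.95 against 0.76 in the miR-101 libraries. F13A1, the catalytic subunit of the coagulation factor that cross-links fibrin, differed by 2.34 ± 0.26, with 7.75, 5.8, 0.869 and 0.860 CPM in the control libraries and 23.6, 26.9, 10.3 and 4.87 CPM in the miR-101 libraries. SLPI, a secreted inhibitor of leukocyte proteases, had a set difference of 1.59 ± 0.25 from 24.3, 23, 7.01 and 2.53 CPM in the control libraries and 57.5, 54.9, 35.6 and 27.1 CPM in the miR-101 libraries. In all of these the controls of cultures 3 and 4 were the lowest libraries and the miR-101 libraries of cultures 1 and 2 the highest.

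A stress cytokine and receptors were also among the highest 14. GDF15, a secreted member of the TGF-beta family that many stresses induce, had 28.7, 31.8, 4.03 and 5.97 CPM in the control libraries and 31.9, 31.8, 10.2 and 9.04 CPM in the miR-101 libraries. The 4 libraries of cultures 1 and 2 lay within 28.7 to 31.9 CPM whichever mimic was used, and the set difference was 2.15 ± 0.14. PDGFRB, a receptor for platelet-derived growth factor, differed by 2.1 ± 0.24, with 6.87, 6.06, 2.36 and 1.48 CPM in the control libraries and 10.5, 9.29, 2.45 and 1.19 CPM in the miR-101 libraries. BDKRB2, the constitutive bradykinin receptor, had a difference of 2.03 ± 0.16 and was 1.96 to 2.09 when any library or culture was left out. LAPTM5, a lysosomal membrane protein best known from blood cells, had 12.6, 14.1, 4.16 and 2.53 CPM in the control libraries and 5.63, 6.15, 2.54 and 1.19 CPM in the miR-101 libraries and a difference of 1.83 ± 0.24. C2CD4A (2.08 ± 0.50) and the epithelial ETS factor ELF3 (1.6 ± 0.30) were also among the 14 highest. C2CD4A depended on the culture kept, with 3.60 without culture 3 and 1.34 without culture 4; leaving out 1 library of culture 3 gave 2.67 (miR-101) or 3.01 (control). ELF3 was 2.30 without culture 3.

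**Figure D2:**
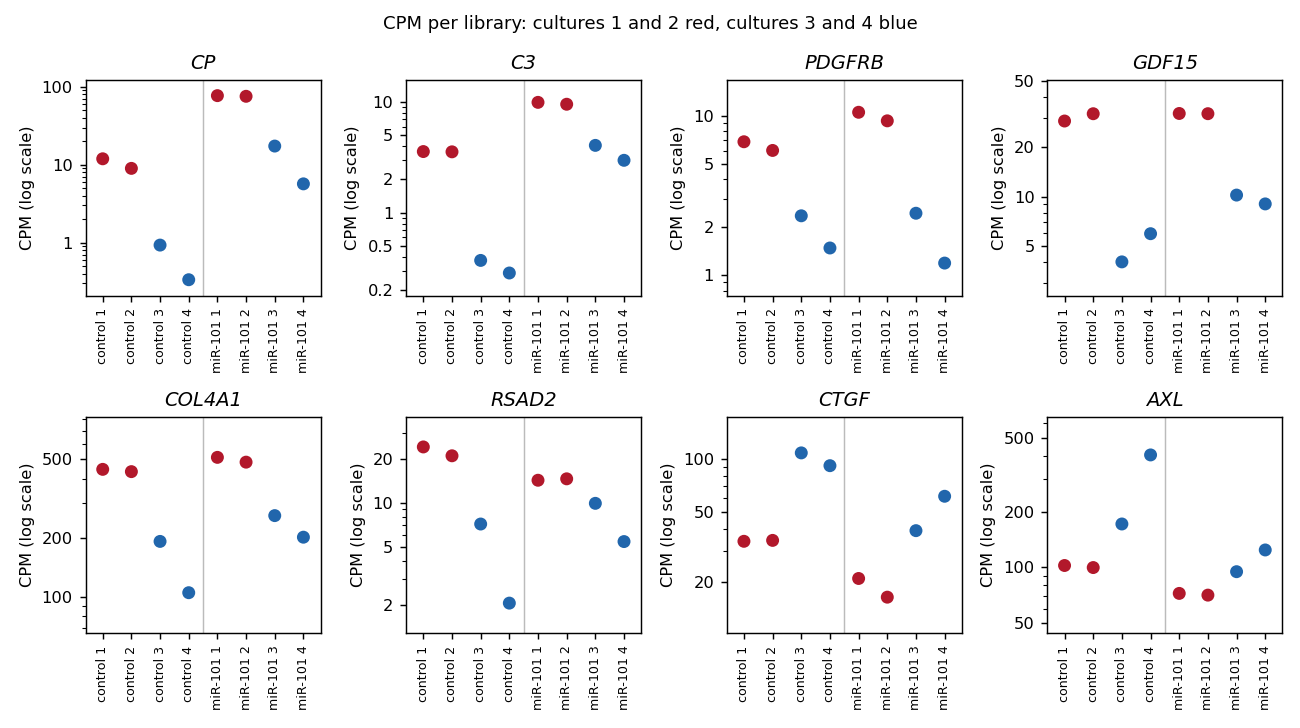
CPM (log axis) of 8 genes in each library, control libraries left of the grey line and miR-101 libraries right of it, cultures 1 and 2 in red and cultures 3 and 4 in blue. The red points lie above the blue points within each mimic for CP, C3, PDGFRB, GDF15, COL4A1 and RSAD2 and below them for CTGF and AXL, and the 2 red points of a mimic lie close together.

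Collagens and laminins, which include chains of the basement membrane and fibrillar chains, were mostly higher in cultures 1 and 2. Of 31 collagen and laminin genes with values, 25 were higher in cultures 1 and 2, 18 of them without overlap, and 8 passed the rule of size. In the lower direction 1, LAMB3, passed it. Over all 15982 genes 7469 were higher, 10.9% were higher without overlap and 1.09% passed the rule as higher. The median set difference was 0.56, against -0.02 over all genes, and it was 0.55 in control and 0.58 in miR-101 libraries, while single members differed more by mimic (COL5A3 1.91 in control and 1.27 in miR-101 libraries, LAMA5 1.1 and 1.59). COL4A1 and COL4A2 encode the paired chains of collagen IV. COL4A1 had 445, 434, 192 and 106 CPM in the control libraries and 512, 484, 259.6 and 202 CPM in the miR-101 libraries, a difference of 1.34 ± 0.18, and COL4A2 differed by 1.21 ± 0.13. LAMA5, the alpha chain of laminins in adult basement membranes, had 18.9, 21.3, 7.26 and 11.4 CPM in the control libraries and 27.9, 24, 10.4 and 6.82 CPM in the miR-101 libraries and a difference of 1.34 ± 0.19. COL5A3 (1.59 ± 0.29), COL15A1 (1.4 ± 0.15), COL18A1 (1.23 ± 0.10), COL4A6 (1.04 ± 0.14) and LAMA2 (1.02 ± 0.18) made up the rest of the 8. The number past the rule as higher was also 8 without culture 3 and 8 without culture 4; that of lower genes was 0 without culture 4. COL5A3 was 2.36 without culture 4.

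The matrix genes did not all lie on one side. LAMB3, a chain of the epithelial laminin 332, had 19.3, 20.2, 30.9 and 74.4 CPM in the control libraries and 11.5, 11.5, 18.1 and 16.5 CPM in the miR-101 libraries, highest in control culture 4, and a difference of -1.01 ± 0.24 that was -0.65 without culture 4. COL1A1, the major chain of bone collagen, had 3.96, 4.02, 7.39 and 9.8 CPM in the control libraries and 10.8, 9.54, 17.9 and 15.8 CPM in the miR-101 libraries and a difference of -0.92 ± 0.14, without overlap within either mimic but under 2-fold. SPARC, a collagen-binding glycoprotein abundant in bone, had 841, 796, 324 and 295 CPM in the control libraries and 1433, 1442, 529.9 and 362 CPM in the miR-101 libraries, and its difference of 1.55 ± 0.13 was the largest among 31 other matrix and remodelling genes, of which 23 were higher and whose median was 0.18. ADAMTS1, a matrix metalloprotease, lay the other way at -1.07 ± 0.37, with control culture 4 at 26.6 CPM and control culture 3 at 7.32 CPM, and was -0.20 without culture 4.

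All 37 interferon-stimulated genes with values had a positive set difference, 24 of them without overlap, and 10 passed the rule of size. Over all genes 10.9% were higher without overlap and 1.09% passed the rule as higher. The median of the list was 0.78, from 1.2 in the control libraries and 0.34 in the miR-101 libraries. As the median deviation from each gene's mean, the list stood at 0.43, 0.41, -0.47 and -1.29 (log2) in the control libraries and at 0.34, 0.43, 0.16 and -0.11 in the miR-101 libraries. The 4 libraries of cultures 1 and 2 were alike, and the low values were those of the controls of cultures 3 and 4, with control culture 4 lowest. Without culture 3 the median was 1.09, and without culture 4 it was 0.59.

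RSAD2, the antiviral protein viperin, had 24, 20.9, 7.14 and 2.05 CPM in the control libraries and 14.2, 14.5, 9.89 and 5.42 CPM in the miR-101 libraries. Its difference of 1.61 ± 0.33 became 2.43 without culture 3. MX1, an antiviral GTPase, had 10.4, 11.3, 2.98 and 2.29 CPM in the control libraries and 12.5, 17.1, 7.93 and 6.55 CPM in the miR-101 libraries and a difference of 1.54 ± 0.16. OAS2, which makes 2-5 oligoadenylates on double-stranded RNA, differed by 1.26 ± 0.26 and OAS1 by 1.16 ± 0.15. The more abundant IFIT1, which binds viral RNA ends, had 278, 262, 138 and 60.8 CPM in the control libraries and 199, 213, 196 and 177 CPM in the miR-101 libraries. The sets differed by 0.14 in the miR-101 libraries and by 1.44 in the controls. IFIT3, a partner of IFIT1, had 352, 328, 178 and 74.8 CPM in the control libraries and 304, 324, 324 and 277 CPM in the miR-101 libraries, so that its miR-101 libraries overlapped. STAT2, a transcription factor of the pathway, differed by 0.34 ± 0.13. IFITM1, a membrane protein that restricts virus entry and that overlaps IFITM2 in the annotation, differed by 1.87 ± 0.23. The summed levels of leukocyte and endothelial markers, which were also higher in the controls of cultures 1 and 2, are given below; their part in this result was not tested.

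**Figure D3:**
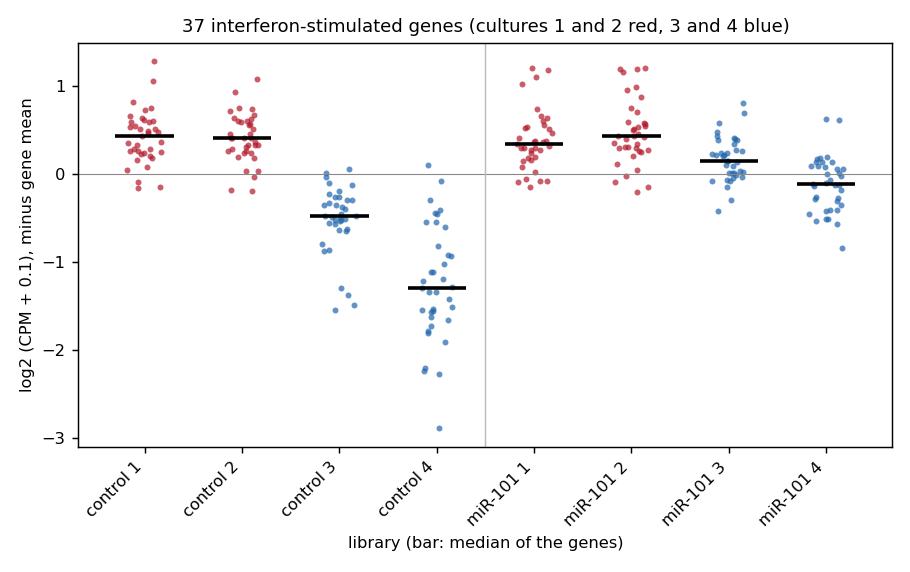
Each point is 1 of 37 interferon-stimulated genes, as log2 (CPM + 0.1) minus the gene's mean over the 8 libraries (y axis), by library (x axis); black bars are medians. The bars stand at 0.43, 0.41, -0.47 and -1.29 in control libraries 1 to 4 and at 0.34, 0.43, 0.16 and -0.11 in miR-101 libraries 1 to 4.

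Smaller shifts in the same direction covered the lysosome and the endoplasmic reticulum. Of 29 lysosome and autophagy genes 26 were higher in cultures 1 and 2, 14 without overlap, with a median of 0.27. Over all 15982 genes 7469 were higher, and 10.9% were higher without overlap. GPNMB, a glycoprotein of lysosomes and melanosomes, had 208, 196, 93.8 and 98.7 CPM in the control libraries and 116, 116, 65.4 and 73.1 CPM in the miR-101 libraries and a difference of 0.91 ± 0.09. The autophagy receptor SQSTM1 differed by 0.77 ± 0.09 and PSAP, the precursor of the saposins, by 0.77 ± 0.10. Of 21 genes of the unfolded protein response and of chaperones of the endoplasmic reticulum 19 were higher, 9 without overlap, with a median of 0.17; the largest were HYOU1 (0.56 ± 0.09), DNAJB9 (0.51 ± 0.23) and calnexin, CANX (0.43 ± 0.09). All 7 genes of MHC class I presentation with values were positive, 6 without overlap, at a median of 0.41; the other 10 genes of that list were not analysed here. Inflammatory and NF-kB targets had a median of 0.28 over 22 genes, of which 15 were higher, 9 without overlap, and 7 lower, among them CXCL8 (-0.52 ± 0.29) and IL1B (-0.47 ± 0.26). The highest were TNFAIP2 (1.09 ± 0.11), NFKB2 (0.77 ± 0.15) and the adhesion molecule ICAM1 (0.75 ± 0.14).

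CTGF, a matrix-associated growth factor and the best known YAP target, was the lowest gene of the comparison among those with at least 4 CPM (chr6:131948176-131951373, minus strand). It had 33.9, 34.3, 108 and 91.5 CPM in the control libraries and 20.8, 16.3, 39 and 61.2 CPM in the miR-101 libraries. Cultures 1 and 2 were below cultures 3 and 4 within each mimic, the difference was -1.49 ± 0.16, and it stayed between -1.64 and -1.31 when any library or culture was left out. AXL, a receptor tyrosine kinase, had 103, 99.9, 172 and 405 CPM in the control libraries and 72.5, 71, 94.9 and 124 CPM in the miR-101 libraries and a difference of -1.06 ± 0.23, with control culture 4 above the other libraries; without culture 4 it was -0.58. Of 24 YAP and TEAD targets 19 were lower, 8 without overlap, and CTGF and AXL passed the rule of size. The median was -0.29, from -0.48 in control and -0.11 in miR-101 libraries, and -0.19 without culture 4, when 15 of 24 were lower. Over all 15982 genes 8513 were lower, 10.1% were lower without overlap and 0.413% passed the rule as lower. As the median deviation from each gene's mean, the list stood at 0.04, -0.13, -0.11 and 0.08 in the miR-101 libraries, where the sets overlapped.

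The low side of this list was carried in part by control culture 4. ANKRD1, a muscle ankyrin repeat protein, had 32.2, 30.9, 31 and 140.2 CPM in the control libraries and 53.5, 48.8, 28.2 and 113 CPM in the miR-101 libraries, so that culture 3 lay with cultures 1 and 2 or below them and culture 4 stood high; the difference of -0.95 ± 0.49 was 0.44 without culture 4. AMOTL2, an angiomotin that binds YAP, had 45.1, 47.6, 52.2 and 156 CPM in the control libraries and 70.6, 64.6, 66.9 and 97.5 CPM in the miR-101 libraries, again highest in control culture 4, and its difference of -0.73 ± 0.29 was -0.08 without culture 4. CYR61, a relative of CTGF, had 38.5, 42.2, 63.8 and 101 CPM in the control libraries and 38.6, 36.8, 39.8 and 62.3 CPM in the miR-101 libraries, also highest in culture 4. FOSL1, an AP-1 subunit outside the list, had 11.3, 12.7, 22.7 and 30.1 CPM in the control libraries and 8.69, 7.9, 9.84 and 12.8 CPM in the miR-101 libraries and a difference of -0.79 ± 0.15 without overlap.

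The other genes of the lowest 14 had varied functions. NEGR1, a neuronal cell adhesion molecule, had 6.49, 6.06, 14.6 and 16.3 CPM in the control libraries and 3.81, 5.00, 7.93 and 10.1 CPM in the miR-101 libraries and a difference of -1.17 ± 0.15. AMIGO2, another adhesion molecule, had 85.9, 81.4, 183 and 155 CPM in the control libraries and 50.9, 50.1, 107 and 109 CPM in the miR-101 libraries; its difference of -1.05 ± 0.09 had the smallest SE of the lowest 14. BEX5 (-1.15 ± 0.17), the homeodomain protein HOPX (-1.1 ± 0.19), the smooth muscle protein SMTN (-1.04 ± 0.26) and MIR155HG, the host transcript of miR-155 (-1.04 ± 0.22), also lay below without overlap. RPS3AP26 (-1.05 ± 0.29) is a ribosomal pseudogene whose reads cannot be told apart from those of RPS3A and of BAIAP2L1, which overlaps it. For 5 genes the difference was mostly that of culture 4: without it AOX1 was -0.42 in place of -1.3, the histone gene HIST1H3C -0.57 in place of -1.28, LINC01468 -0.56 in place of -1.19, SPOCD1 -0.27 in place of -1.19 and the metallothionein MT1E -0.48 in place of -1.07.

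Genes of growth and division were lower in cultures 1 and 2 by small amounts. Of 78 cytosolic ribosomal protein genes 76 were lower, 30 without overlap, with a median of -0.25 that was -0.23 in control and -0.25 in miR-101 libraries. Over all 15982 genes 8513 were lower, and 10.1% were lower without overlap. RPL9 had 18, 18.7, 24.7 and 30.6 CPM in the control libraries and 24.2, 23.3, 32.8 and 38.7 CPM in the miR-101 libraries and a difference of -0.59 ± 0.12, and RPL7 differed by -0.55 ± 0.20; reads of such genes may be shared with pseudogenes. Of 42 genes of mitosis and G2/M 38 were lower, 19 without overlap, at a median of -0.24. AURKB, the kinase of the chromosomal passenger complex, had 41.8, 38.4, 47.2 and 76.1 CPM in the control libraries and 32.5, 33.2, 51.7 and 48.9 CPM in the miR-101 libraries and a difference of -0.62 ± 0.15, and ANLN, the anillin of the cleavage furrow, differed by -0.58 ± 0.17. Genes of DNA replication had a median of -0.10, with 33 of 44 lower. Of 32 genes of the integrated stress and amino acid response 26 were lower, 12 without overlap, at a median of -0.31. Asparagine synthetase, ASNS, had 29.7, 25.8, 65.6 and 45.8 CPM in the control libraries and 32.2, 34.1, 55.5 and 54.4 CPM in the miR-101 libraries and a difference of -0.87 ± 0.13, while DDIT4, an inhibitor of mTORC1 signalling on the same list, was higher at 0.81 ± 0.25 with overlap and at 0.40 without culture 4. Replication-dependent histone genes had a median of -0.36, with 50 of 53 lower, but without culture 4 the median was 0.01 with 25 lower; these genes are near-identical copies and their values are uncertain.

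**Figure D4:**
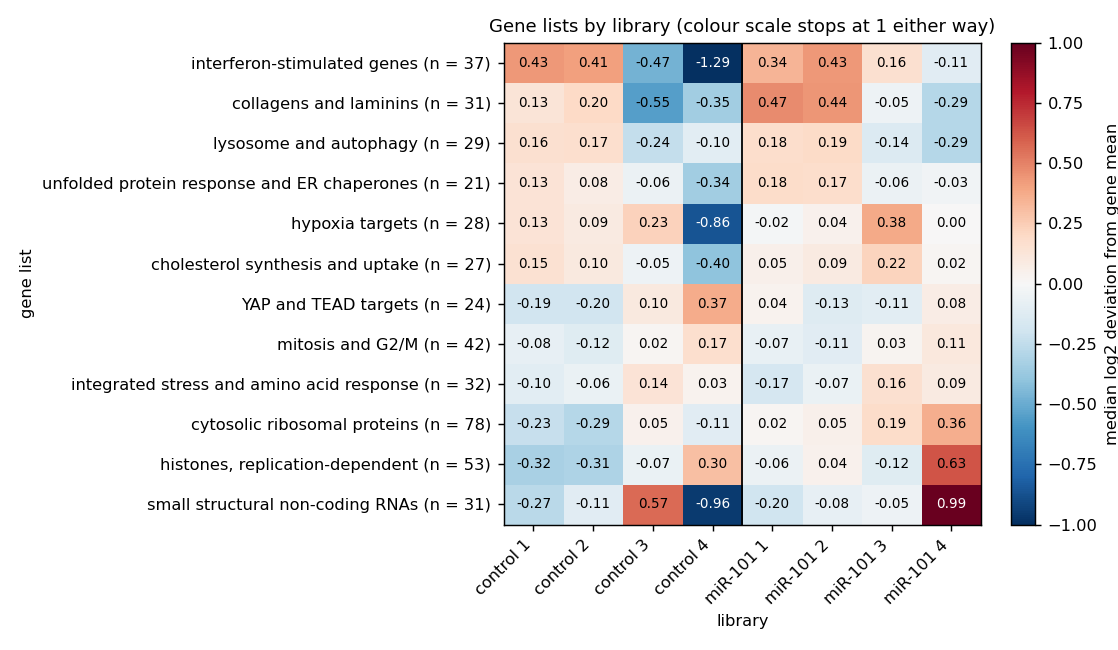
Median deviation (log2) of the genes of 12 lists from each gene's mean over the 8 libraries, by list (rows) and library (columns), on a colour scale that stops at 1 either way. Libraries 1 and 2 carry nearly the same value in each mimic, while control library 4 stands apart for interferon-stimulated genes (-1.29), hypoxia targets (-0.86) and small structural non-coding RNAs (-0.96).

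Some lists separated culture 4 from culture 3 more than the sets from each other. Hypoxia targets stood at 0.13, 0.09, 0.23 and -0.86 in the control libraries and at -0.02, 0.04, 0.38 and 0.00 in the miR-101 libraries. Their median set difference of 0.04 was 0.44 without culture 3 and -0.22 without culture 4, so its sign was that of the culture kept. NDRG1, a hypoxia-induced gene, had 143, 132, 91.8 and 29.5 CPM in the control libraries and 80.5, 89.3, 127 and 43 CPM in the miR-101 libraries, lowest in culture 4 with either mimic, and a difference of 0.59 ± 0.38 that was 0.0035 without culture 4. Of 27 cholesterol genes 21 were higher in cultures 1 and 2 at a median of 0.16; it was 0.36 in the control libraries and -0.00 in the miR-101 libraries, and the list stood at -0.40 in control culture 4. SCD, the stearoyl-CoA desaturase, had 1973, 1922, 1602 and 799 CPM in the control libraries and 2038, 2103, 2065 and 1361 CPM in the miR-101 libraries. Small structural non-coding RNAs had a negative difference in 31 of 31 genes at a median of -0.45, but stood at 0.99 in miR-101 culture 4, 0.57 in control culture 3 and -0.96 in control culture 4. RNU4-2, a spliceosomal RNA, had 275, 378, 631 and 167 CPM in the control libraries and 311, 387, 449 and 1223 CPM in the miR-101 libraries, so no common direction of the set was present there.

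Apart from the cell type markers and osteoblast genes, which are given below, the remaining lists had medians between -0.13 and 0.17. They were 0.02 for 26 p53 targets, 0.13 for 24 glycolysis genes, 0.17 for 17 heat shock genes, 0.09 for 13 mRNAs of mitochondrial DNA, 0.14 for 24 NRF2, antioxidant and iron genes, 0.02 for 17 MAPK feedback genes and -0.03 for 22 immediate early genes. They were -0.13 for 74 mitochondrial ribosomal proteins (57 lower, 16 without overlap, against 10.1% of all genes) and -0.11 for 73 nuclear subunits of the respiratory chain and ATP synthase. They were -0.06 for 21 aminoacyl-tRNA synthetases, -0.08 for 19 nuclear long non-coding RNAs (13 lower, 7 without overlap, against the same 10.1%) and -0.04 for 19 genes of microRNA processing. Some of their members lay apart from the median. NEAT1, the RNA scaffold of paraspeckles, had 77.5, 94.3, 63.3 and 41.8 CPM in the control libraries and 158, 142, 78.2 and 65.4 CPM in the miR-101 libraries and a difference of 0.89 ± 0.15, and SNHG5, a host of small nucleolar RNAs, was lower at -0.66 ± 0.16. FAS, the death receptor, was higher at 0.68 ± 0.15, and EPHA4, an ephrin receptor, at 0.82 ± 0.24. By position, the median set difference of a chromosome ran from -0.16 on chromosome 12 (582 genes) to 0.07 on the X chromosome (397 genes). By biotype it was -0.01 for 12240 protein-coding genes and -0.41 for 87 small nucleolar RNAs.

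The labelled cell type was checked against its markers. Of 10 mesenchymal markers all 10 had values, 5 higher and 5 lower in cultures 1 and 2, at a median of -0.00; VIM, vimentin, had 597, 526, 899 and 651 CPM in the control libraries and 508, 476, 806 and 533 CPM in the miR-101 libraries and a difference of -0.45 ± 0.15. Of 16 osteoblast genes 9 had values; 4 were higher and 5 lower in cultures 1 and 2, at a median of -0.17, and 3 passed the rule of size as higher, or 1 without culture 4. The secreted phosphoprotein SPP1 had 56.1, 35.2, 19.4 and 3.97 CPM in the control libraries and 159, 156, 141 and 33.2 CPM in the miR-101 libraries and a difference of 1.42 ± 0.51, which was 2.88 without culture 3 and 0.70 without culture 4, and TNFRSF11B, the decoy receptor osteoprotegerin, differed by 1.1 ± 0.28. RUNX2, the osteoblast transcription factor, differed by -0.28 ± 0.20. The 3 osteoblast genes past the rule of size stand against 1.09% of all genes. The summed level of the 4 leukocyte markers with values (of 12) was 8.50 and 5.50 CPM in control cultures 3 and 4 and 17.7 and 20.1 CPM in control cultures 1 and 2; it was 4.33 to 9.64 CPM in the miR-101 libraries. Most of it was LAPTM5 in the controls of cultures 1 and 2, LYZ was lower there at -0.95 ± 0.46, CD14 had 1.19 to 3.55 CPM and PTPRC was not analysed here. The 3 endothelial markers with values (of 8) summed to 17.7 to 28.9 CPM in miR-101 and 27.6 to 71.2 CPM in control libraries, most of it the receptor TIE1. Epithelial markers had values for 4 of 12, at a median set difference of 0.23. Of these, EPCAM was lower at -0.77 ± 0.13 and the keratin KRT8 higher at 0.44 ± 0.12. The median set difference was 0.41 for the 4 leukocyte markers and 0.79 for the 3 endothelial markers.

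Genes rose and fell with miR-101 in both sets. Averaged over the sets, 798 genes (4.99%) rose with miR-101 and 692 (4.33%) fell (edgeR quasi-likelihood test, adjusted p under 0.05). In cultures 1 and 2 alone 195 genes (1.22%) rose and 168 (1.05%) fell, and in cultures 3 and 4 212 (1.33%) rose and 119 (0.745%) fell, in 1 fit with a shared spread. Fitted alone, cultures 1 and 2 gave 5126 calls and cultures 3 and 4 gave 6, all higher (edgeR; 1258 at an unadjusted p under 0.05), so the calls in cultures 3 and 4 rest on the spread shared with the other set. The closeness of libraries 1 and 2 entered the choice of the sets and also lowers that shared spread, so these counts are not independent of the choice. Of the rising genes 110 were called in both sets, 56.4% of those of cultures 1 and 2 and 51.9% of those of cultures 3 and 4; of the falling genes 80 were, 47.6% and 67.2%. With the culture number as a block the counts were 173 (99 higher) and 199 (148 higher). The counts hang on single libraries: leaving out 1 library of cultures 1 and 2 left 0 to 2 calls in that set by edgeR (0 without control library 1, where 1332 genes had an unadjusted p under 0.05), and leaving out control library 3 or 4 gave 1887. In cultures 3 and 4 the calls ran from 43 (without miR-101 library 1 or 2) to 3918 (without control library 3).

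Among the genes with the smallest p of those called in both sets, 1, CEMIP, passed the rule of size for a difference of responses and is given below with such genes. CCDC80, a secreted matrix protein, had 23.1, 22.5, 17.7 and 16.3 CPM in the control libraries and 85.4, 88.9, 83.5 and 85.7 CPM in the miR-101 libraries. It rose by 1.93 ± 0.13 (log2) in cultures 1 and 2 and by 2.31 ± 0.13 in cultures 3 and 4 (edgeR adjusted p = 0.00114 and 0.000587). STK25, a kinase of the Golgi, rose by 1.87 ± 0.16 and 1.89 ± 0.16 from 30.8, 36.2, 28.5 and 36.4 CPM in the control libraries and 116, 129, 122 and 119 CPM in the miR-101 libraries. IL6, the inflammatory cytokine, rose by 2.52 ± 0.25 and 3.17 ± 0.27, and the transcription factor CEBPD by 1.76 ± 0.17 and 2.32 ± 0.17. ENTPD1, the ectonucleotidase CD39, was under 0.366 CPM or at it in each control library and had 8.64, 8.89, 3.13 and 3.63 CPM with miR-101; on average it rose by 4.25 ± 0.21 (edgeR adjusted p = 8.2e-05).

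TFB2M, a factor for transcription of mitochondrial DNA, had 47.7, 47.5, 48.5 and 48.9 CPM in the control libraries and 17.4, 17, 18.4 and 22.6 CPM in the miR-101 libraries, and fell by -1.47 and -1.25 (log2) in the sets (edgeR adjusted p = 0.00802 and 0.00864). TLR4, the receptor for bacterial lipopolysaccharide, had 83.7, 75.6, 91.9 and 65.2 CPM in the control libraries and 25.8, 25.4, 27.3 and 26.8 CPM in the miR-101 libraries; its responses were -1.64 ± 0.18 and -1.54 ± 0.18. ATL3, a GTPase that shapes the endoplasmic reticulum, had responses of -1.03 ± 0.12 and -1.12 ± 0.12, DCBLD2 of -1.66 ± 0.18 and -1.34 ± 0.18, TMC7 of -1.64 ± 0.21 and -2.08 ± 0.21, and MRGBP of -1.39 ± 0.14 and -1.08 ± 0.14, with miR-101 below control in 4 of 4 cultures in each case. EZH2, the histone methyltransferase, had 46, 46.7, 51.3 and 38.9 CPM in the control libraries and 25.9, 26.7, 30.3 and 29.3 CPM in the miR-101 libraries. It fell by -0.71 ± 0.11 on average (edgeR adjusted p = 0.00671) and by -0.82 ± 0.16 in cultures 1 and 2 (adjusted p = 0.0388, 0.0673 with the culture block), while its response of -0.60 ± 0.16 in cultures 3 and 4 did not pass (adjusted p = 0.104). The average response of EZH2 missed the threshold without miR-101 library 1 (adjusted p = 0.0564) or 2 (0.0516). Of 33 described targets 9 fell in cultures 1 and 2 and 5 in cultures 3 and 4, with medians of -0.64 and -0.41. With the culture block these counts were 4 and 2. Over all genes 1.05% fell in cultures 1 and 2 and 0.745% in cultures 3 and 4, without the block. POMP, a proteasome assembly factor, and CDK8, a kinase of the Mediator complex, were called in both (-1.54 and -1.21; -1.17 and -1.11).

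Matches to the seed printed above were compared between the sets. Among 12221 genes with a 3′ UTR in GENCODE 29, the 563 whose longest UTR holds an 8mer site had a median response of -0.26 in cultures 1 and 2 and -0.25 in cultures 3 and 4. The 1032 genes with a 7mer-m8 site as their best had -0.09 in each set, the 1358 with a 7mer-A1 site 0.01 and 0.02, and the 9268 without a site 0.01 and -0.03. In cultures 1 and 2, 52 of the 8mer genes fell (9.24%, against 0.647% of genes without a site), and in cultures 3 and 4, 39 did (6.93% against 0.432%). The set difference itself had medians of -0.04 for 8mer genes and 0.00 for genes without a site.

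Interferon-stimulated genes, C1S, C3 and CALCRL had a lower response to miR-101 in cultures 1 and 2 than in cultures 3 and 4, and ARHGAP31 and PLCXD2 a higher one. Differences of responses are given as the response in cultures 1 and 2 minus that in cultures 3 and 4 (log2), with no test. Adjusted p-values below are of the response within 1 set. Genes named for a large difference of responses, such as CALCRL and KLF2, were picked on these same libraries. Their p-values are thus not independent of that choice. A call in 1 set and none in the other does not test the difference, and calls in cultures 3 and 4 rest on the shared spread. By the rule of size, at least 2-fold and no overlap of the ratios of each miR-101 to each control library of a set with those of the other, 128 genes (0.801%) had the higher response in cultures 1 and 2 and 183 (1.15%) the lower. With at least 4 CPM the counts were 10 and 40. Of the 183, 33 were also higher in cultures 1 and 2 by the set rule, which uses the same control libraries. Without culture 3 the total of 311 became 1492 and without culture 4 it became 738; in these fits a culture is 1 library per mimic, so that fewer ratios must not overlap. The nearest to the threshold were IL11, SCG2 and ANKRD33B inside and ALDH3B1, CYTH4 and TMCC3 outside it.

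Of 37 interferon-stimulated genes 36 had the lower response in cultures 1 and 2, 24 without overlap and 14 past the rule of size. Over all 15982 genes 7590 had the lower response there, 858 without overlap and 183 past the rule. The median response of the 37 genes was -0.03 in cultures 1 and 2 and 0.90 in cultures 3 and 4, and their median difference -0.92. In cultures 3 and 4, 7 of the 37 rose, against 1.33% of all genes (edgeR adjusted p under 0.05). In cultures 1 and 2, 1 of the 37 did, against 1.22% of all genes. These calls are of the response within each set and do not test the difference between the sets. The 7 were IFI6, MX1, OAS1, PARP9, TRIM22, BST2 and EPSTI1, and EPSTI1 rose in both sets. PARP9, a mono-ADP-ribosyltransferase partner of DTX3L, had 71.7, 69, 28.9 and 22 CPM in the control libraries and 64.5, 67.7, 50.7 and 57.6 CPM in the miR-101 libraries; it rose by 1.09 ± 0.16 in cultures 3 and 4 (edgeR adjusted p = 0.0169) and its response in cultures 1 and 2 was -0.09 ± 0.16. BST2, the tether that retains budding viruses, had 1.98, 2.19, 0.372 and 0.191 CPM in the control libraries and 2.04, 2.15, 1.81 and 2.00 CPM in the miR-101 libraries, so that only the controls of cultures 3 and 4 were low. OASL had 127, 118, 58.5 and 15.6 CPM in the control libraries and 95.9, 107, 132 and 56.5 CPM in the miR-101 libraries and a difference of -1.62 ± 0.76. That of OASL was -0.89 without miR-101 library 3, -2.87 without control library 3 and -0.96 without control library 4. With culture 4 left out 7 members of the list passed the rule in place of 14, and with culture 3 left out 21 did.

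Other genes with the lower response in cultures 1 and 2 included those that led the set difference. CALCRL, a receptor for adrenomedullin and CGRP, had 8.14, 4.07, 2.23 and 1.00 CPM in the control libraries and 14.3, 14.8, 22.1 and 11.3 CPM in the miR-101 libraries. It rose by 3.4 ± 0.49 in cultures 3 and 4 (edgeR adjusted p = 0.0156), and its response in cultures 1 and 2 was 1.25 ± 0.42 (adjusted p = 0.189). C1S rose by 3.08 ± 0.31 in cultures 3 and 4 and had a response of 0.90 ± 0.24 in cultures 1 and 2, a difference of -2.19 ± 0.39 that was -2.81 without culture 3. C3 rose in both sets, by 1.45 ± 0.22 and 3.41 ± 0.31, with a difference of -1.97 ± 0.40. CEMIP, a hyaluronan-degrading protein, had 82.2, 79.8, 18.7 and 19.5 CPM in the control libraries and 254, 242, 205 and 129 CPM in the miR-101 libraries and rose by 1.62 ± 0.20 and 3.13 ± 0.22. IFITM1 rose by 2.01 ± 0.36 in cultures 3 and 4 and had 0.12 ± 0.29 in cultures 1 and 2; its difference of -1.88 was -1.30 without miR-101 library 3.

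Lower levels in control culture 4 entered several of these values. SCN3A, a sodium channel subunit, had 6.54, 6.16, 2.11 and 0.430 CPM in the control libraries and 4.94, 5.1, 6.22 and 3.36 CPM in the miR-101 libraries, and its difference of -2.33 ± 0.72 was -1.53 without control library 4 and -3.81 without control library 3. GBP2, an interferon-induced GTPase, had 14.8, 14.8, 5.15 and 1.77 CPM in the control libraries and 11.8, 12.2, 11.4 and 5.69 CPM in the miR-101 libraries, and its difference of -1.64 ± 0.61 was -1.04 without control library 4 and -2.58 without control library 3. CALCRL was -2.80 without control library 3. Hypoxia targets had a median difference of -0.46, with 26 of 28 lower, and cholesterol genes of -0.37, with 25 of 27 lower. Both lists were low in control culture 4. Without culture 4 the medians were still -0.33 for hypoxia targets, with 6 of 28 higher, and -0.28 for cholesterol genes, with 4 of 27 higher. Without culture 3 they were -0.79 and -0.68. EGLN3, a prolyl hydroxylase of HIF, had 36.6, 37.4, 17.6 and 10.6 CPM in the control libraries and 41.3, 42.4, 40.5 and 28.2 CPM in the miR-101 libraries and rose by 1.3 ± 0.25 in cultures 3 and 4 (edgeR adjusted p = 0.0410).

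The higher response in cultures 1 and 2 was found in fewer genes of at least 4 CPM. ARHGAP31, which switches off CDC42 and RAC1, had 2.58, 2.82, 3.6 and 5.4 CPM in the control libraries and 5.26, 5.8, 3.52 and 3.41 CPM in the miR-101 libraries, so that miR-101 was above control in cultures 1 and 2 and below it in cultures 3 and 4; the difference was 1.42 ± 0.34. PLCXD2 had 4.78, 4.34, 10.4 and 18.5 CPM in the control libraries and 5.47, 5.4, 6.46 and 7.09 CPM in the miR-101 libraries and a difference of 1.35 ± 0.38. The transcription factor KLF2 fell in cultures 3 and 4 (-2.09 ± 0.37, edgeR adjusted p = 0.0311) and had -0.85 ± 0.38 in cultures 1 and 2; its difference of 1.24 ± 0.53 was 0.55 without control library 4. TMEM160 (1.21 ± 0.29), the pseudogene NSUN5P1 (1.2 ± 0.52, 0.38 without control library 4), SVEP1 (1.14 ± 0.32) and the RNA-binding protein RBMS2 (1.1 ± 0.38) were also among the highest 8. YAP and TEAD targets had a median difference of 0.30, with 22 of 24 higher.

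**Figure D5:**
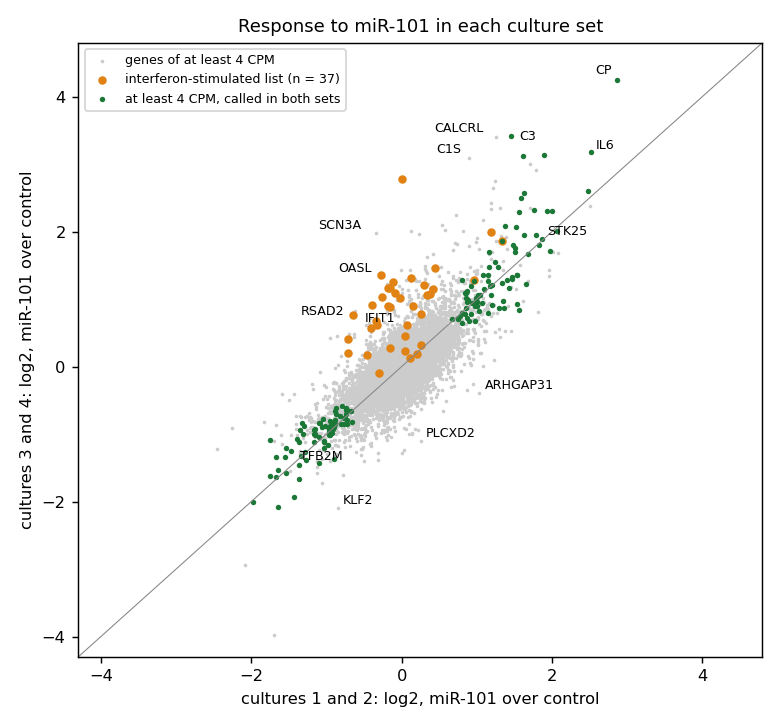
Response of each gene to miR-101 as log2 of miR-101 over control in cultures 1 and 2 (x axis) and in cultures 3 and 4 (y axis), with the line of equal response; grey, genes of at least 4 CPM; green, those called in both sets; orange, 37 interferon-stimulated genes. Green points lie on and off the line, with C3 at 1.45 and 3.41 and TFB2M at -1.47 and -1.25; the orange points lie mostly above it, with medians of -0.03 on the x axis and 0.90 on the y axis.

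Shares of counts were compared between the mimics as a check across sets. Messenger RNAs of mitochondrial DNA took 0.188% ± 0.0111 (SD, n = 4) of counts with miR-101 and 0.285% ± 0.0361 with the control mimic (two-sided exact permutation test, p = 0.0286, the smallest that 70 permutations can give, adjusted p = 0.0857 over 6 shares). Ribosomal protein mRNAs took 4.8% ± 0.264 and 3.87% ± 0.248 (n = 4 each, exact permutation p = 0.0286, adjusted p = 0.0857). Both differences went the same way in 4 of 4 cultures and neither passed after adjustment. The permutations ran over all 8 libraries and used neither the set nor the culture number. By list, the median response of the 13 mitochondrial mRNAs was -0.59 in cultures 1 and 2 and -0.40 in cultures 3 and 4, and that of 78 ribosomal protein genes 0.32 and 0.31. Interferon-stimulated genes took 0.338% and 0.335% of counts in control cultures 1 and 2, 0.183% and 0.136% in control cultures 3 and 4, and 0.222% to 0.308% in the miR-101 libraries.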

How the data were processed

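RNA-seq was made from 8 libraries. The authors deposited whole-number counts per gene; the submitters' processing notes name the build hg38 and, as tools, StringTie (1.2.4), TopHat2 (2.0.14) and bcl2fastq (2.18.0.12). For the counter, the annotation and the strand setting the sources used here give nothing, so reads of overlapping, antisense and near-identical genes cannot be told apart. Counts were fitted with edgeR 4.0.16 (R 4.3.3, TMM, quasi-likelihood, 1 mean per mimic and set, 4 residual degrees of freedom, Benjamini-Hochberg over 15982 genes; all passed filterByExpr). DESeq2 1.42.0 and the culture number as a block were alternatives. Same-numbered libraries deviated together (correlations 0.327, 0.420, 0.184 and 0.207), all over 0.1, and the numbers were taken to pair the samples. Neither the main fit nor the permutation test uses this pairing. Within cultures 1 and 2, libraries of other numbers had 0.368 (miR-101 library 1 with control library 2) and 0.368 (miR-101 library 2 with control library 1). Within cultures 3 and 4 they had 0.388 (miR-101 library 4 with control library 3) and -0.013 (miR-101 library 3 with control library 4). The correlations thus do not tell a pairing by number from the likeness within a set. Members and gene lists were chosen with earlier results of these data known. Named are the 14 highest and 14 lowest set differences and the 8 highest and 8 lowest differences of responses past the rule of size with at least 4 CPM, up to 3 genes each way per list, the 6 smallest p each way called in both sets, EZH2 and TFB2M; other genes named were picked with their values known, and some genes the rule names are not reported here. Of the names, 14035 matched GENCODE 29 directly, 2 by an older name and 1945 did not. The fits were tested on simulated data.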

Additional observations from a re-analysis of the deposited data

Results flagged for a closer look

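Among 258 groups of 4 libraries (123 genes named in the text and 6 shares of counts, in each mimic), 15 held a library far from the other 3, by a gap above Dixon's 95% critical share of the group's range; chance alone gives about 1 in 20. In all 15 the far library was that of culture 4. The sets were chosen on the closeness of libraries in the other set, which favours culture 3 or 4 as the far one. Many of the 123 genes were also named with their values known. The 15 are thus a description and no independent evidence about culture 4. In the control group the gap was 0.882 for AMOTL2, 0.973 for ANKRD1, 0.836 for DNAJB9, 0.852 for SPOCD1 and 0.909 for the share of histones. In the miR-101 group it was 0.887 for ANLN and for EGLN3, 0.851 for CYR61, 0.831 for DDIT4, 0.907 for GBP2, 0.898 for HIST1H3C, 0.928 for SCD and 0.921 for SPP1. There it was 0.901 for the share of small structural non-coding RNAs and 0.865 for that of the 10 most abundant genes.

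In 11 of the 123 genes every ratio of a miR-101 to a control library was above 1 in one set and below 1 in the other, a difference that was not tested. Some of the 123 were named for a large difference of responses, so this count does not give the share over all genes. Given as the response in cultures 1 and 2 minus that in cultures 3 and 4 (log2), it was -2.33 for SCN3A, -1.64 for GBP2, -1.37 for IFIT3, -1.32 for IFI6, -1.30 for IFIT1, -1.18 for PARP9, -0.94 for CD14 and -0.56 for ICAM1. It was 1.42 for ARHGAP31, 1.35 for PLCXD2 and 0.96 for TMCC3.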

How the results depend on the processing

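Leaving out 1 library leaves its group and set with 1 library that is assumed to vary like the others. Genes called for the average response were then 403 to 4842, and 7731 without culture 3 or 5687 without culture 4 (2 alternatives chosen after seeing the data). In cultures 1 and 2 they were 0 to 1887 with 1 library left out, 173 with the culture number as a replicate block, 698 by DESeq2, 5126 with that set alone, 5105 without culture 3 and 5104 without culture 4. In cultures 3 and 4 they were 43 to 3918, 199 with the block, 682 by DESeq2, 6 with that set alone, 6785 and 3590. With the block the average response had 1120 calls. Genes past the rule of size between sets were 878 at 1.5-fold, 219 to 399 with 1 library left out and 607 without culture 3; for the difference of responses they were 765, 452 to 1243, 1492 without culture 3 and 738 without culture 4. The cause was not tested. The mimic difference in the share of small structural RNAs changed sign without miR-101 library 1 (0.275 percentage points), 2 (0.0794) or 3 (0.111) or control library 3 (0.866), that of the 10 most abundant genes without control library 3 (0.377) and that of interferon-stimulated genes without control library 4 (-0.00691); over all libraries left out in turn these ran from -1.70 to 0.866, from -1.79 to 0.377 and from -0.00691 to 0.0604. The set difference cannot be estimated with the block. For the 57 values of single genes, 734 alternative values kept direction and stayed within the spread or on their side of the threshold, 60 moved by more and 2, both of EZH2, lost the call.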
